A study of Homo sapiens with 31 samples.

Results

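eIF4A is the ATP-dependent RNA helicase of the cap-binding complex eIF4F, which prepares the 5′ end of an mRNA for loading of the small ribosomal subunit. Mammalian cells make eIF4A as a pair of close paralogs, eIF4A1 and eIF4A2, which can each take that place in eIF4F. The series is about eIF4A1 and LARP1, an RNA-binding protein, during inhibition of the kinase complex mTORC1, a state in which mRNAs with a 5′ terminal oligopyrimidine tract, above all those of the ribosomal proteins, are translationally repressed. Here the question was narrower: which transcripts were captured better with eIF4A1 than with eIF4A2, and which the other way round.

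Of the 31 libraries of the series, 8 measured this. All came from HEK293 T-REx, an established line of human embryonic kidney origin built for inducible transgenes, and none of the 8 had a drug or siRNA treatment in its labels. The genotype was SBP-eIF4A1 for 4 libraries and SBP-eIF4A2 for the other 4, where SBP is a streptavidin-binding peptide joined to the factor. Each genotype had 2 input libraries (RNA of the lysate) and 2 pulldown libraries (RNA held on streptavidin beads and released with biotin). The labels do not say whether the replicates were separate cultures, which promoter drove the tagged protein, whether the lines were clones, or whether both proteins were handled side by side. The p-values below therefore measure the spread between these libraries, and the protein cannot be told apart from anything else that differed between the lines or their pulldowns. A pulldown from cells without a tagged protein was not analysed here, so RNA held by the beads themselves was not subtracted.

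The capture preference of a transcript was the log2 enrichment (pulldown against input) with SBP-eIF4A1 minus the log2 enrichment with SBP-eIF4A2. A positive value means relatively more capture with eIF4A1. Transcripts with the same counts everywhere were merged, and of neighbours in the listing with closely correlated counts 1 was kept. The 8 libraries then held 12621161 to 17630956 counts, and 26527 transcripts passed the filter on low counts. Transcripts that share a gene and part of its reads can remain, so the numbers of calls below are not numbers of separate genes. All values are relative to the other transcripts of a library. The reference tables did not pair the transcript IDs with genes, so transcripts are described by ID, level and listed length, and neither the tagged genes nor markers of the cell line were checked. The length is a column of the deposited files whose unit the files do not give. It went down to -9, so it is not the plain length of a transcript. Short, long and length below refer to this listed value. A transcript with no length had no counts.

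In the pulldowns without siRNA, abundant transcripts of short listed length were captured better with eIF4A1, and transcripts of long listed length better with eIF4A2. With a second SBP-eIF4A1 experiment, made after control siRNA, in place of the first, this order turned: the median log2 preference was -0.19 in the shortest of 5 length classes, -0.26 in the middle one and 0.71 in the longest, against 0.089, 0.14 and -0.16 without siRNA. In all, 4168 of 26527 transcripts (15.7%) differed between the proteins at an adjusted p under 0.05 (edgeR quasi-likelihood test of the difference, Benjamini-Hochberg adjustment). Of these, 2762 (10.4% of those tested) favoured SBP-eIF4A1 and 1406 (5.3%) favoured SBP-eIF4A2. At an unadjusted p under 0.05 there were 7236. The median length was 210 among the calls for SBP-eIF4A1, 832 among those for SBP-eIF4A2 and 201 among all tested. The median level was 5.66, 5.38 and 3.02 log2 CPM. Length rose with level: of 5 level classes, the least abundant had a median length of 90 and the most abundant 490. The lengths of 210 and 201 therefore do not compare transcripts of like level. Among abundant transcripts, 69.1% of the shortest of 10 length classes and 1.44% of the longest were called for SBP-eIF4A1. The differences in capture between the proteins were moderate in size. The median log2 preference was 0.62 among the calls for SBP-eIF4A1 (quartiles 0.48 and 0.82) and -0.57 among those for SBP-eIF4A2 (quartiles -0.82 and -0.43). Only 358 and 202 calls exceeded 1 log2 unit. Leaving out a library moved the total strongly: 2392 to 2961 transcripts were called without 1 of the inputs or SBP-eIF4A1 pulldowns. Without SBP-eIF4A2 pulldown replicate 1 there were 7832, and without its replicate 2 there were 6689. In these 8 fits no original call that could be tested changed its sign (4168 were tested in each, and 4167 without SBP-eIF4A2 input replicate 2). Each fit kept all but 1 of the libraries from which the calls were chosen, so the unchanged signs carry little weight.

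**Figure D1:**
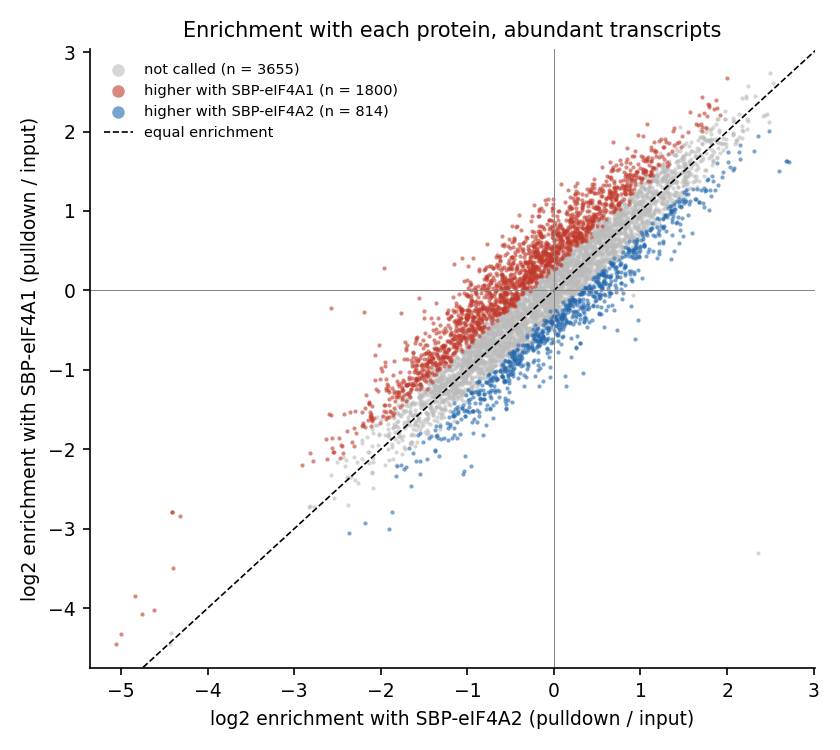
Log2 enrichment (pulldown against input) with SBP-eIF4A2 on the x axis and with SBP-eIF4A1 on the y axis, for the 6269 transcripts whose mean log2 CPM reached 5. Each point is a transcript, red and blue points are those called for a preference, and the dashed line marks equal enrichment. Points lie along the line, with 1800 called above it and 814 below, and a small group at the lower left is strongly depleted with both proteins.

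The preference was more often a difference of degree than of direction. Against input, SBP-eIF4A1 gave 14693 calls (55.4%), of which 7627 (28.8%) were enriched and 7066 (26.6%) depleted. SBP-eIF4A2 gave 15863 (59.8%), of which 7902 (29.8%) were enriched and 7961 (30%) depleted. Among the 2762 transcripts captured better with eIF4A1, 627 were enriched with both proteins and 803 were depleted with both, only less so with SBP-eIF4A1. A further 268 were enriched in the eIF4A1 pulldown and depleted in that of eIF4A2. Another 471 were enriched with SBP-eIF4A1 alone in the sense of the test, and 586 were depleted with SBP-eIF4A2 alone. The 1406 transcripts captured better with eIF4A2 showed the same mixture. Of them, 306 were enriched with both, 27.9% depleted with both, 84 enriched with SBP-eIF4A2 and depleted with SBP-eIF4A1, 292 called only as enriched with SBP-eIF4A2 and 328 only as depleted with SBP-eIF4A1. Opposite enrichments thus accounted for 9.70% of the first class and 5.97% of the second.

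Replicates were close for abundant transcripts. The calls were chosen for differences beyond the spread between replicates, so their size is not weighed against it here. For the 6269 transcripts whose mean level reached 5 in log2 CPM (CPM, the count scaled to a fixed library total with TMM), called abundant below, the standard deviation between replicates was 0.0631 log2 units for SBP-eIF4A1 inputs and 0.0562 for SBP-eIF4A2 inputs. It was 0.0788 for SBP-eIF4A1 pulldowns and 0.128 for SBP-eIF4A2 pulldowns, the least alike of the 4 pairs. Pearson's r between replicates across these transcripts was 0.988 or more in each pair. The enrichments of the 2 pulldown libraries of a protein, each over the mean input, did not overlap with those of the other protein for any of the 4168 calls. This was also so for 16138 of all tested transcripts (60.8%), so the absence of overlap carries little weight by itself.

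A difference between the input transcriptomes accompanied part of the preference. Between the inputs, 4904 transcripts (18.5%) were called, 2328 (8.78%) higher in SBP-eIF4A1 cells and 2576 (9.71%) higher in SBP-eIF4A2 cells. Among the transcripts captured better with eIF4A1, 498 had more input in SBP-eIF4A2 cells and 354 (12.8%) had more input in SBP-eIF4A1 cells. Among those captured better with eIF4A2 the input was higher in SBP-eIF4A1 cells for 351 and in SBP-eIF4A2 cells for 155 (11.0%). The inputs enter the preference with the opposite sign, so such a tilt is part of the arithmetic. The pulldown libraries compared with each other, with no input subtracted, called 10148 transcripts (38.3%), 5730 (21.6%) higher in the SBP-eIF4A1 pulldown and 4418 (16.7%) lower. That comparison, added after the data were seen, called 2387 of the 2762 (86.4%) as higher in the SBP-eIF4A1 pulldown and 39 as lower. Of the 1406, it called 1101 (78.3%) as higher in the SBP-eIF4A2 pulldown and 22 as lower. The same pulldown libraries enter the preference, so this overlap is in large part set by how the calls were chosen. It does not show that the preference is free of the inputs.

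Among abundant transcripts the preference was lower the longer the transcript. In 10 length classes of about 627 abundant transcripts each, the median log2 preference was 0.54 in the shortest (length 11 to 149). It was 0.40 in the next (150 to 221), 0.17 in the middle class of length 388 to 475, -0.0019 at 590 to 728 and -0.32 in the longest (1327 to 8788). In the shortest class 93.3% of transcripts lay above 0, and 433 of 627 were called for SBP-eIF4A1 against 5 for SBP-eIF4A2. In the longest class 12.8% lay above 0, and 9 were called for SBP-eIF4A1 against 312 for SBP-eIF4A2. Among all 6269 abundant transcripts, 28.7% were called for SBP-eIF4A1 and 13.0% for SBP-eIF4A2. Across them the Spearman rho between preference and length was -0.63, a description over transcripts of the same 8 libraries. Over all 26527 transcripts tested it was -0.16, and the order was not monotone. In 5 length classes of all transcripts the median preference was 0.089, 0.12, 0.14, 0.064 and -0.16 from the shortest to the longest, and calls for SBP-eIF4A1 made up 5.65%, 11.2%, 17.2%, 13.4% and 4.54%.

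In the libraries without siRNA, abundant short transcripts were captured better than long ones with both proteins, more steeply with eIF4A1. This was not so in the SBP-eIF4A1 pulldowns after control siRNA, where the longest of 5 length classes took 48.7% and 51.3% of counts against 30.2% and 29.7% in their inputs. In the shortest of the 10 classes the median log2 enrichment was 0.69 and 0.74 in the SBP-eIF4A1 pulldown libraries, and 0.094 and 0.13 in those of SBP-eIF4A2. In the longest class the eIF4A1 pulldowns stood at -0.94 and -0.98, those of eIF4A2 at -0.64 and -0.65. The libraries of the proteins lay apart at both ends and met at lengths of 475 to 728. Across abundant transcripts, the Spearman rho of enrichment on length was -0.48 for SBP-eIF4A1 and -0.21 for SBP-eIF4A2.

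**Figure D2:**
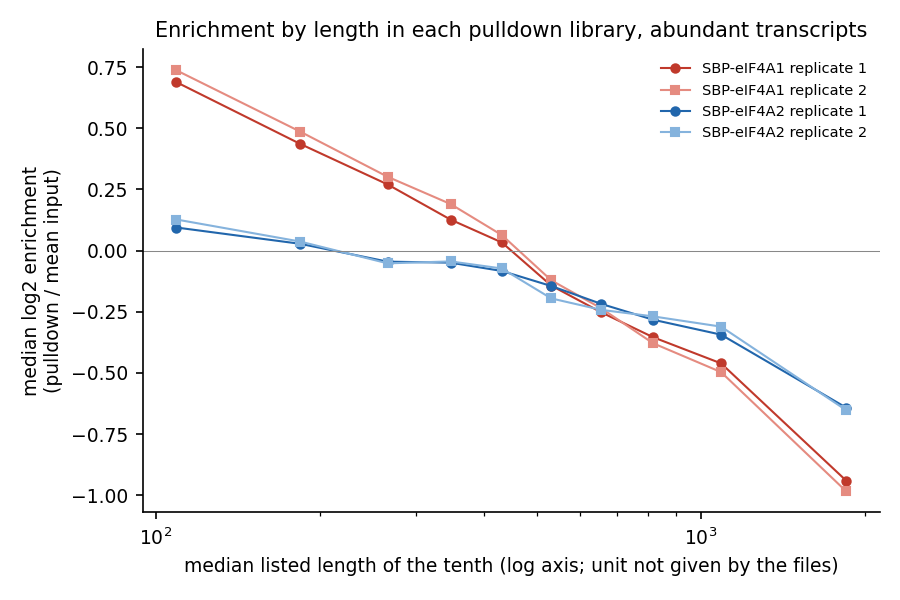
Median log2 enrichment (pulldown against the mean input of the same protein) in 10 length classes of abundant transcripts, plotted at the median listed length of each class on a log axis, with a line for each pulldown library. The SBP-eIF4A1 libraries fall from 0.69 and 0.74 to -0.94 and -0.98, those of SBP-eIF4A2 from 0.094 and 0.13 to -0.64 and -0.65, and the lines cross at lengths of about 475 to 728.

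Very long transcripts stood furthest on the eIF4A2 side. Of 253 abundant transcripts with a length over 2000, 162 were called for SBP-eIF4A2 and 1 for SBP-eIF4A1, and their median log2 preference was -0.42. Of the 35 with a length over 4000, 31 were called for SBP-eIF4A2 and 0 for SBP-eIF4A1, with a median of -0.71.

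The preference also varied with level. Over all 26527 transcripts split into 5 classes by level, calls for SBP-eIF4A1 made up 0.961% of the least abundant class and 30.6% of the most abundant, and calls for SBP-eIF4A2 0.528% and 13.8%. Low counts limit what can be called, but the median preference also moved with level at a given length. In the shortest of 5 length classes (length 2 to 77) it was -0.012 in the least abundant class and 0.62 among the 110 most abundant transcripts, 78.2% of which were called for SBP-eIF4A1. At lengths of 146 to 293 it went from -0.059 to 0.41. In the longest class (571 to 14498) it was -0.41 in the least abundant and -0.12 in the most abundant transcripts, so no level class of long transcripts had a positive median. When the trend over length was removed from each library, 2829 of the 4168 calls remained in the same direction, and 857 rather than 1406 transcripts were called for SBP-eIF4A2. That trend was fitted over all transcripts tested, and among abundant ones the preference fell more steeply with length (Spearman rho -0.63 against -0.16). The calls that remained therefore do not show how much of the preference went with length, which was not tested.

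The 2 called transcripts with the largest preference in each direction, among abundant ones whose libraries did not overlap between proteins, are the extremes of the classes and not typical of them. Of the 4, 3 were enriched with one protein and depleted with the other, a type that is rare among the calls. ENST00000538128.5 (length 49) stood at 47.5 and 44.5 CPM in the SBP-eIF4A1 inputs and at 41.2 and 38.1 in the SBP-eIF4A1 pulldowns. In SBP-eIF4A2 cells it stood at 39.0 and 41.1 CPM in the inputs and at 7.73 and 5.79 in the pulldowns. The inputs were alike, and only the SBP-eIF4A2 pulldowns were low. Its log2 preference was 2.36 (SE 0.16, edgeR adjusted p 8.66e-08, n = 2 libraries per group).

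ENST00000504553.2 (length 98) stood at 106 and 102 CPM in the SBP-eIF4A1 inputs and at 128 and 125 in its pulldowns. In SBP-eIF4A2 cells it stood at 66.8 and 68.2 CPM in the inputs and at 20.6 and 14.4 in the pulldowns. Both pulldowns with eIF4A1 were above, and both with eIF4A2 below, their inputs. The log2 preference was 2.24 (SE 0.14, edgeR adjusted p 5.53e-08, n = 2 libraries per group).

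In the other direction, ENST00000301740.13 (length 2743) stood at 200.1 and 186 CPM in the SBP-eIF4A1 inputs and at 118 and 135 in the pulldowns. In SBP-eIF4A2 cells it stood at 195 and 182 CPM in the inputs and at 363 and 356 in the pulldowns. The inputs overlapped between the lines, and the pulldowns lay on opposite sides of them. The log2 preference was -1.54 (SE 0.095, edgeR adjusted p 5.14e-08, n = 2 libraries per group).

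ENST00000432566.6 (length 622) stood at 109 and 111 CPM in the SBP-eIF4A1 inputs and at 54.6 and 53.2 in the pulldowns. In SBP-eIF4A2 cells it stood at 104 and 102 CPM in the inputs and at 134 and 126 in the pulldowns. Its log2 preference was -1.37 (SE 0.088, edgeR adjusted p 6.73e-08, n = 2 libraries per group). In each line its pulldowns and inputs lay apart, below the input with eIF4A1 and above it with eIF4A2. For these 4 transcripts, reads shared with near-identical copies elsewhere could not be checked.

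The classes took up large shares of the libraries. The 2762 transcripts captured better with eIF4A1 held 45.5% and 46.1% of the counts of tested transcripts in the SBP-eIF4A1 inputs and 45.2% and 45.9% in the SBP-eIF4A2 inputs. They held 51.7% and 52.2% in the SBP-eIF4A1 pulldowns but 37.6% and 38.7% in the SBP-eIF4A2 pulldowns. The 1406 captured better with eIF4A2 went from 9.49% and 9.28% to 6.75% and 6.61% with SBP-eIF4A1, and from 9.09% and 8.86% to 11.4% and 11.2% with SBP-eIF4A2. These shares follow from how the classes were chosen. The longest of the 5 length classes was not chosen on capture. It fell from 34.1% and 33.7% of input counts to 23.9% and 23.4% with SBP-eIF4A1, and from 34.8% and 34.2% to 32.1% and 31.6% with SBP-eIF4A2.

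**Figure D3:**
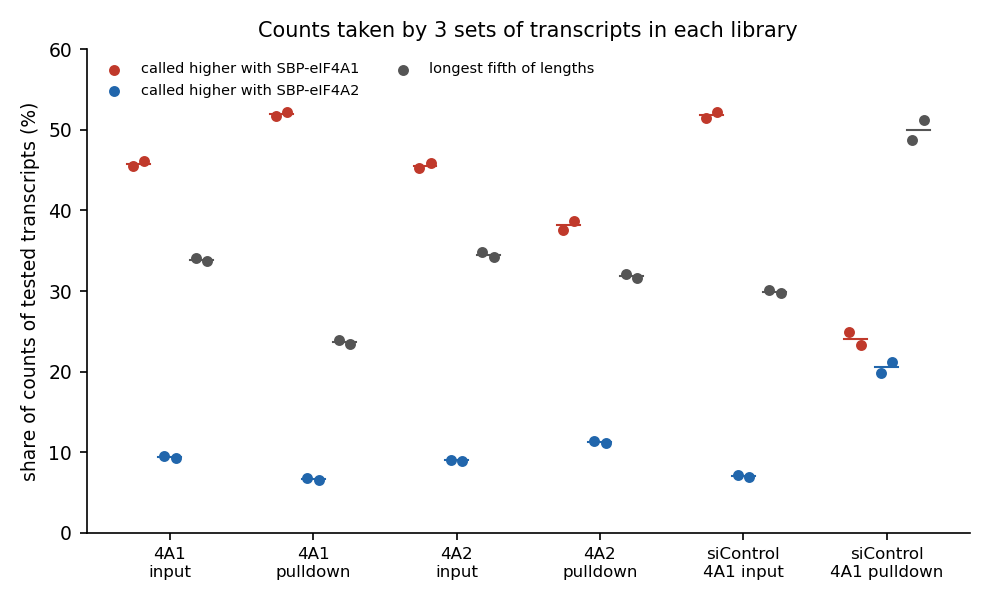
Share of the counts of tested transcripts (percent, y axis) taken by transcripts called for SBP-eIF4A1 (red), for SBP-eIF4A2 (blue) and by the longest of 5 length classes (grey), in 6 groups of 2 libraries. Points are libraries and bars their means. In the siControl pulldowns the red set falls to 24.9% and 23.3% and the grey set rises to 48.7% and 51.3%.

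SBP-eIF4A1 capture was measured a second time in the series, after 72 h of control siRNA (siControl), with 2 input and 2 pulldown libraries that the preference does not use. There the classes stood the other way round. In that experiment alone, 13299 of 24535 transcripts (54.2%) were called against input, 6599 (26.9%) as enriched and 6700 (27.3%) as depleted (edgeR, adjusted p under 0.05). Of the transcripts captured better with eIF4A1 without siRNA, 2025 of 2740 (73.9%) were depleted with SBP-eIF4A1 after siControl and 90 (3.28%) enriched. Of those captured better with eIF4A2, 1015 of 1399 (72.6%) were enriched with SBP-eIF4A1 after siControl and 62 (4.43%) depleted.

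The same held in both siControl pulldown libraries. The median log2 enrichment of the class captured better with eIF4A1 was -1.05 and -1.09 in the 2 libraries. That of the class captured better with eIF4A2 was 0.98 and 1.10, and all transcripts stood at 0.053 and 0.048. In the single pulldown after LARP1 siRNA (siLARP1) the medians were -1.09 and 0.94, with no replicate. Across abundant transcripts, the Spearman rho between the preference and siControl enrichment was -0.69. The siControl enrichment of SBP-eIF4A1 had a rho of 0.49 with SBP-eIF4A2 enrichment and of 0.19 with the siRNA-free enrichment of SBP-eIF4A1. These 3 values are descriptions across 6269 transcripts.

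**Figure D4:**
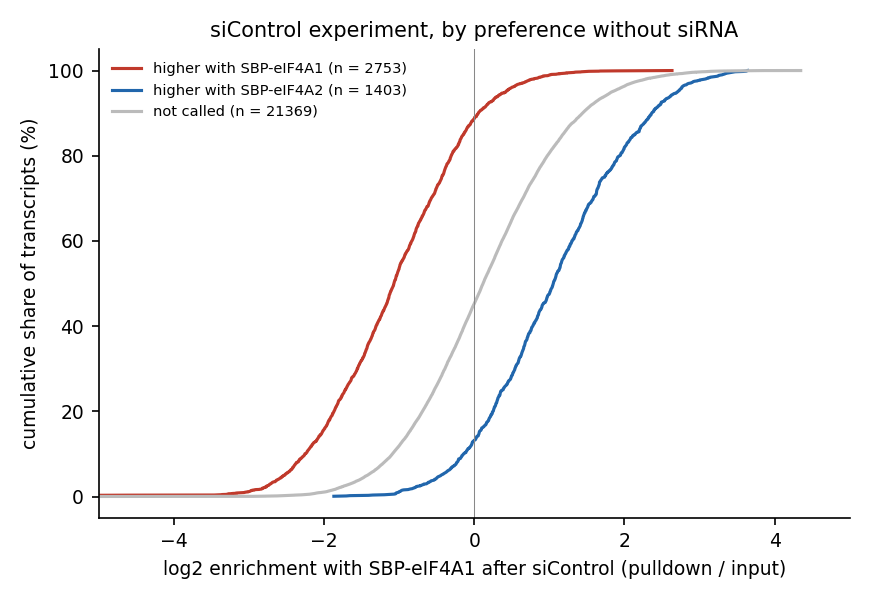
Cumulative share of transcripts (percent, y axis) by log2 enrichment with SBP-eIF4A1 after siControl (x axis), for the transcripts called for SBP-eIF4A1 without siRNA (red, n = 2753), called for SBP-eIF4A2 (blue, n = 1403) and not called (grey). Of the red transcripts 11.3% lie above 0, and of the blue ones 86.8%.

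With the siControl libraries in place of those without siRNA, the difference between the proteins was called for 10078 transcripts. Of 4163 original calls that could be tested there, 379 were called in the same direction and 2360 in the opposite one. The 2 transcripts named for eIF4A1 kept their direction, at 1.05 and 0.87 log2 units. Yet their log2 enrichment with SBP-eIF4A1 was -1.53 and -1.10 after siControl, against -0.21 and 0.28 without siRNA. Their preference stayed positive because the values with SBP-eIF4A2 were lower still, at -2.57 and -1.96. The transcripts named for eIF4A2 turned to a log2 preference of 2.02 and 2.24. ENST00000301740.13 stood at 136 and 159 CPM in the siControl inputs and at 948 and 1315 in the siControl pulldowns (CPM with a prior count of 2). The preference as a property of short or long transcripts was therefore not the same in the 2 SBP-eIF4A1 experiments. The labels give the siRNA treatment as the difference between them, and anything else that differed between the experiments cannot be told apart from it.

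Readouts of untagged cells came from other libraries of the series and are given as medians, with no test of the classes. Here and below the classes are those of the pulldowns without siRNA, which stood the other way round with SBP-eIF4A1 after siControl. Footprints per RNA were the ribosome footprints of a transcript in naive cells given DMSO, relative to its RNA-seq level in naive cells. The titles of the RNA-seq libraries name no DMSO. This ratio was higher for transcripts captured better with eIF4A1. The median log2 ratio was 0.29 for each of the 2 footprint libraries in that class, -0.63 and -0.58 in the class captured better with eIF4A2, and 0.068 and 0.073 over all. The order held at matched length. Among abundant transcripts of length 293 to 571 the medians were 0.26 for 546 transcripts called for eIF4A1, -0.083 for 1217 not called and -0.64 for 101 called for eIF4A2. At lengths above 571 they were 0.16, -0.24 and -0.75. The class medians hide wide differences: for ENST00000301740.13 the log2 footprints per RNA were 2.99 and 3.10 in the footprint libraries, and for ENST00000432566.6 they were -5.20 and -5.89.

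The classes also differed in their response to PP242, an inhibitor of the mTOR kinase, given for 30 min at 1 or 10 µM with 1 footprint library per dose and cell line. The change in naive cells is taken against the same naive DMSO libraries that give footprints per RNA. Footprints of knockout cells in DMSO, given below, are also compared with those libraries. These readouts are thus not independent of each other. In naive cells the median log2 footprint change of the class captured better with eIF4A1 was -0.14 at 1 µM and -0.11 at 10 µM, and that of the class captured better with eIF4A2 was 0.11 and 0.056. All transcripts stood at 0.010 and -0.0055. In EIF4A2 knockout (KO) cells the values were -0.18 and -0.15 against 0.14 and 0.12. In EIF4A1 KO cells they were -0.041 and -0.053 against 0.034 and 0.019. The transcripts with the strongest preference for eIF4A1 in the pulldowns without siRNA had the lowest medians in each line. For the 91 abundant transcripts above a log2 preference of 1, the median change at 1 µM was -0.71 in naive cells. It was -0.44 where EIF4A1 was knocked out and -0.85 where EIF4A2 was. With SBP-eIF4A1 after siControl the same 91 transcripts had a median log2 enrichment of -2.15, against 2.20 for the 22 below a preference of -1.

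Part of this pattern moved with length. Among abundant transcripts of length 146 to 293, the median change at 1 µM in naive cells was -0.17 for those called for eIF4A1, -0.00096 for those not called and 0.12 for the 19 called for eIF4A2. Above a length of 571 the medians were 0.050, 0.10 and 0.12, so the first class had no negative median there. In EIF4A1 KO cells it did: above a length of 571 its median was -0.20 at 1 µM and -0.12 at 10 µM, against 0.033 and 0.0011 for the class captured better with eIF4A2 and -0.057 and -0.030 for transcripts not called. In EIF4A2 KO cells the first class stood at 0.039 and 0.038 at that length.

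**Figure D5:**
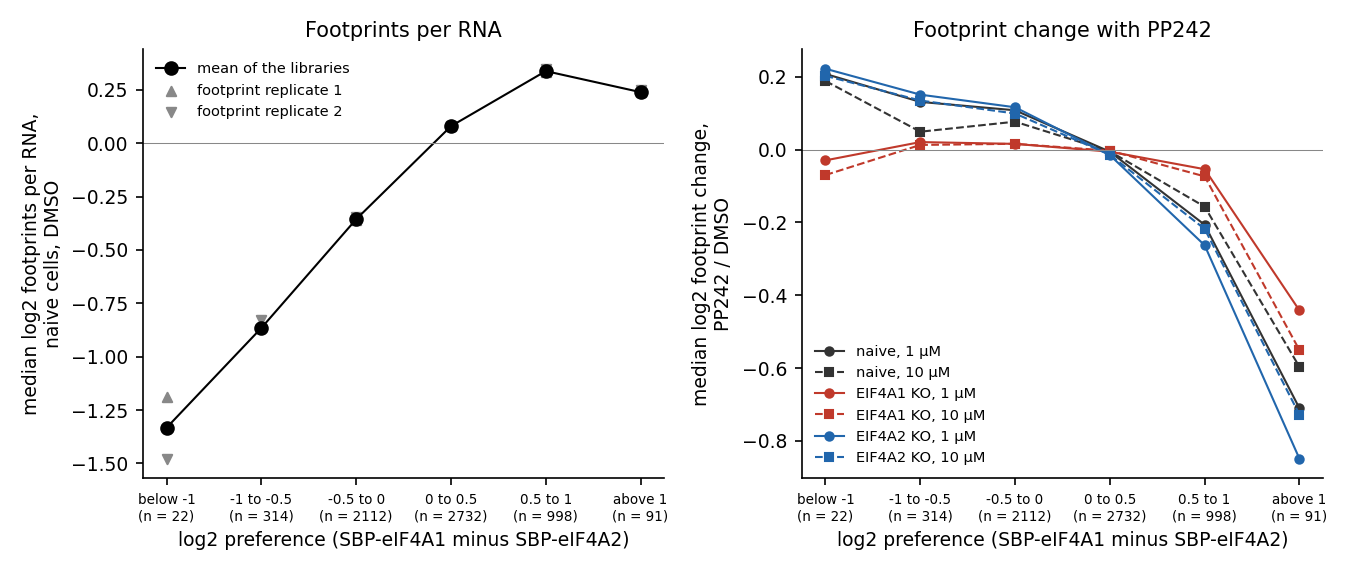
Medians over abundant transcripts in 6 bins of log2 preference (x axis, with the number of transcripts). The left panel shows log2 footprints per RNA (footprints of naive DMSO cells, RNA of naive cells), with the 2 footprint libraries as triangles. The right panel shows the log2 footprint change with PP242 at 1 and 10 µM in 3 cell lines. Footprints per RNA go from -1.33 in the lowest bin to 0.34 and 0.24 in the highest bins, and the change with PP242 is below 0 in every line above a preference of 0.5.

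The inputs of the siRNA experiment also differed between the classes. After siLARP1 the median log2 change of input RNA against siControl was -0.19 for transcripts captured better with eIF4A1, 0.14 for those captured better with eIF4A2 and 0.022 over all. In EIF4A1 KO cells the median log2 change of RNA against naive cells was -0.063 and 0.048 for the classes, and -0.0031 over all. In DMSO the footprints of EIF4A1 KO cells changed by medians of -0.13 and 0.064, and those of EIF4A2 KO cells by -0.038 and 0.045, where all transcripts stood at -0.025 in the first line and -0.00051 in the second. At matched length this order did not hold throughout. Among abundant transcripts above a length of 571 the EIF4A1 KO medians were 0.14 for the class captured better with eIF4A1 and 0.10 for the other, and at 146 to 293 they were -0.18 and -0.22, the latter over 19 transcripts. In EIF4A2 KO cells they were 0.0047 and 0.046 above 571, and -0.018 and -0.082 at 146 to 293.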

How the data were processed

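The authors deposited 1 table per library with a count of reads for each transcript, in whole numbers, and a length of undeclared unit; STAR 2.7.0a, CASAVA 1.8 and hg38 are named per the submitters' processing notes, and the labels' protocols give a stranded mRNA kit. How reads shared by transcripts were assigned is not given in the sources used here. Many transcripts carried equal counts: of 227264 listed, 94734 had a count and 26549 of these shared all counts with another. Transcripts with equal counts in all files were merged (77343 distinct, with the median length for 1722 of unequal lengths), and of transcripts within 10 distinct neighbours in the listing whose log counts correlated above 0.9, the one with the most counts was kept (35424). The design had foreseen 1 transcript per gene, but the reference did not pair these IDs with genes, so the 18 gene lists, the levels of EIF4A1 and EIF4A2 and cell type markers were not analysed here. Of the deposited lengths, 313 were below 0.

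The 8 libraries were fitted together by group in edgeR 4.0.16 (R 4.3.3; TMM scaling, filterByExpr with a minimum count of 10 and total of 15, quasi-likelihood test), with Benjamini-Hochberg adjustment over 26527 transcripts and a threshold of 0.05. Alternatives were DESeq2 1.42.0 (size factors, Wald test), no filter, a mean count of at least 50, a replicate block, removal of a loess trend over length (span 0.3), all distinct transcripts, siControl libraries, leaving out each library and, added after seeing the data, pulldowns alone. Other readouts are differences of log2 CPM with a prior count of 2. Transcripts named are the 2 called ones with the largest preference in each direction among those whose mean log2 CPM reached 5 and whose libraries did not overlap. The comparison and the lists were chosen with earlier results of these data known. Reads were not counted by molecular identifiers, so the depth of a library does not give the number of separate RNA molecules.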

Additional observations from a re-analysis of the deposited data

Results flagged for a closer look

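The enrichment of 4168 transcripts differed between SBP-eIF4A1 and SBP-eIF4A2 by the test of the difference itself (edgeR quasi-likelihood test, Benjamini-Hochberg adjusted p under 0.05). The named transcripts are among them, with a log2 preference of 2.36 for ENST00000538128.5, 2.24 for ENST00000504553.2, -1.54 for ENST00000301740.13 and -1.37 for ENST00000432566.6. No group had 4 or more libraries, so no library could be tested as standing apart from its group.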

How the results depend on the processing

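Of 4168 calls, 3838 were called in the same direction with DESeq2 size factors, 3019 with DESeq2's Wald test and 3939 without a filter on low counts. The Wald test left an adjusted p for 14698 transcripts, against 26527 in the main fit. A call missing there can therefore be a transcript without an adjusted p. Of the 17 alternatives, 10 moved the number of calls by over 1.5 times. The number lower with SBP-eIF4A1 moved that far under 12, which include each of the 8 that left out a library. All distinct transcripts gave 13212 calls (8305 higher with SBP-eIF4A1, 4907 lower), many of them copies of the same reads. The siControl libraries gave 10078 (5338 and 4740), and the pulldowns alone 10148 (5730 and 4418). With the length trend removed, 857 transcripts were lower. Leaving out 1 library gave 2392 to 7832 calls, 1715 to 4829 higher and 648 to 3003 lower. The causes were not tested.

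The median preference of the longest of 5 length classes was -0.16. It was -0.20 with DESeq2 size factors and with its Wald test, -0.14 without a filter, -0.19 at a mean count of at least 50 and -0.18 to -0.14 without 1 library. It was 0.018 with the length trend removed, which that step brings about by construction. With the siControl libraries it was 0.71, the middle class turned to -0.26 and the shortest to -0.19, ENST00000301740.13 to 2.02 and ENST00000432566.6 to 2.24. The numbers of calls for each protein's own enrichment stayed within 1.5 times in the 14 settings run for each.

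Replicate numbers were not taken to pair an input with a pulldown. Across abundant transcripts the replicate deviations of input and pulldown correlated at 0.049 for SBP-eIF4A1 and 0.13 for SBP-eIF4A2. With input replicates this alike (standard deviation 0.0631 and 0.0562 log2 units), a low correlation cannot tell whether they were paired. The fit with the replicate block called 4038 transcripts, 3874 of them among the original calls. Alternatives for gene lists were not run. With 2 libraries per group, low counts limit what could be called.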

Other observations

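A small group of abundant transcripts was strongly depleted in the pulldowns of both proteins. The cut, a log2 enrichment with SBP-eIF4A2 below -3.5, was chosen after the values were seen and took in 11 transcripts of length 94 to 210, some of which carried near-identical counts. They ranged from 180.3 to 1391 CPM in the SBP-eIF4A1 inputs and from 7.81 to 133 in its pulldowns. In SBP-eIF4A2 cells they ranged from 232 to 1693 CPM in the inputs and from 6.66 to 62.1 in the pulldowns. Their log2 enrichment was -4.45 to -2.78 with SBP-eIF4A1, -5.05 to -4.32 with SBP-eIF4A2 and -5.56 to -4.59 with SBP-eIF4A1 after siControl.

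Some transcripts were present in 1 line only. With over 10 CPM in the inputs of one line and under 1 CPM in those of the other, 6 transcripts were found in SBP-eIF4A2 cells and 9 in SBP-eIF4A1 cells, of which 0 and 1 were called for a preference. One of them, of length 272, stood at 0.151 and 0 CPM in the SBP-eIF4A1 inputs, at 0 in both of its pulldowns, at 20.1 and 20.8 in the SBP-eIF4A2 inputs and at 111 and 98.3 in the SBP-eIF4A2 pulldowns. No preference can be given for it, since SBP-eIF4A1 cells held nearly none of it.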
